A study of Mus musculus with 6 samples.

Results

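The 9 genes described here encode receptors that steer leukocytes into, within and out of the bone marrow, and they were taken by symbol from a table of 37043 gene symbols. They are the CXC chemokine receptors Cxcr4 and Cxcr2, the CC chemokine receptors Ccr1, Ccr2 and Ccr3, the atypical receptor Ccrl2, and the receptors for sphingosine 1-phosphate (S1P) S1pr1, S1pr2 and S1pr4. Their transcripts were counted by bulk RNA-seq in bone marrow-derived basophils (BMBAs), which are basophils grown in culture from the bone marrow of C57BL/6J WT mice. In both groups the marrow cells had been grown for 7 days with cytokine at 0.3 ng/mL, named as IL-3 in the methods of the study, and basophils had been enriched with beads against CD49b. The PBS group (n = 3) then received PBS for 6 h and the IL-3 group (n = 3) received IL-3 at 10 ng/mL for 6 h. The labels and methods do not say whether IL-3 remained in the medium of the PBS group. Nor do they say whether the 3 cultures of a group came from different mice, so p-values measure the spread between these cultures.

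Chemokine receptors and S1P receptors are G protein-coupled receptors that turn a gradient of ligand outside the cell into directed movement. CXCR4 binds CXCL12 made by marrow stroma and keeps leukocytes in the marrow, whereas S1PR1 draws cells toward the S1P of blood and lymph and so favours egress. CXCR2, CCR1, CCR2 and CCR3 respond to chemokines made in inflamed tissue, CCR3 being the eotaxin receptor of eosinophils and basophils. CCRL2 binds chemerin without signalling of its own, S1PR2 tends to restrain migration, and S1PR4 is found mainly on blood cells. The study asked whether IL-3 releases basophil precursors from the marrow, and the comparison of PBS with IL-3 is given here for the retention receptor against those of egress and recruitment.

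The DNA just upstream of Cxcr4 and of Cxcr2 is printed because Cxcr4 had the largest fall and Cxcr2 the largest rise among the 9 genes. Each line holds the 250 bases before the RefSeq transcript start in build GRCm38.p6, written 5′ to 3′ on the strand of the gene, with every CG dinucleotide in capitals. The Cxcr4 stretch lies at chr1:128592300-128592549 on the minus strand and the Cxcr2 stretch at chr1:74153744-74153993 on the plus strand.
Cxcr4: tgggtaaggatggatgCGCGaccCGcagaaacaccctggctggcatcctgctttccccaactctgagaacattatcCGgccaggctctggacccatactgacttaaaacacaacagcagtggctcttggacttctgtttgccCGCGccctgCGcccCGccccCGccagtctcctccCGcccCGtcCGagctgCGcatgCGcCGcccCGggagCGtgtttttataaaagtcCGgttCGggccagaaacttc
Cxcr2: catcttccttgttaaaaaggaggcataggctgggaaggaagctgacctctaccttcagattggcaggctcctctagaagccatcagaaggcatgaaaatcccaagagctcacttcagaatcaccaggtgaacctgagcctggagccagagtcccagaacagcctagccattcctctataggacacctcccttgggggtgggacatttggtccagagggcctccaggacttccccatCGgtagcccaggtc
The Cxcr4 stretch held 19 CG dinucleotides and 61.2% G and C bases, and the Cxcr2 stretch held 1 CG dinucleotide and 54.4% G and C bases. Over 32851 such stretches of the RefSeq table the median was 6 CG dinucleotides. As many as in Cxcr4 or more were present in 19.7% of the stretches, and as few as in Cxcr2 or fewer in 18.8%. Ccr1, which rose with IL-3, and Ccr2, which fell, had the same count of 1. S1pr4, which rose, and Ccr3, which was not called, had 0. S1pr2 and Ccrl2, which fell, had 14 and, in overlapping stretches, 5 to 7, and S1pr1 had no stretch.

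With IL-3, 5 of the 9 receptor genes were lower (Cxcr4, Ccrl2, Ccr2, S1pr1 and S1pr2), 3 were higher (Cxcr2, Ccr1 and S1pr4) and Ccr3 was not called. A gene was called when the adjusted p of the edgeR quasi-likelihood test was below 0.05. All 9 genes had enough counts to be tested. Of the 16675 genes tested, 38.2% were called, 18.0% higher and 20.2% lower, so a call alone was common in these libraries. The 2 groups did not overlap for 8 of the 9 receptor genes, against 48.2% of all genes tested. Levels are given as CPM, the usual depth-scaled read count, with library sizes adjusted by TMM (trimmed mean of M values), and log2 fold changes are IL-3 minus PBS. The median log2 fold change of all tested genes was -0.0033 and the median size of a called change was 0.61.

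**Figure D1:**
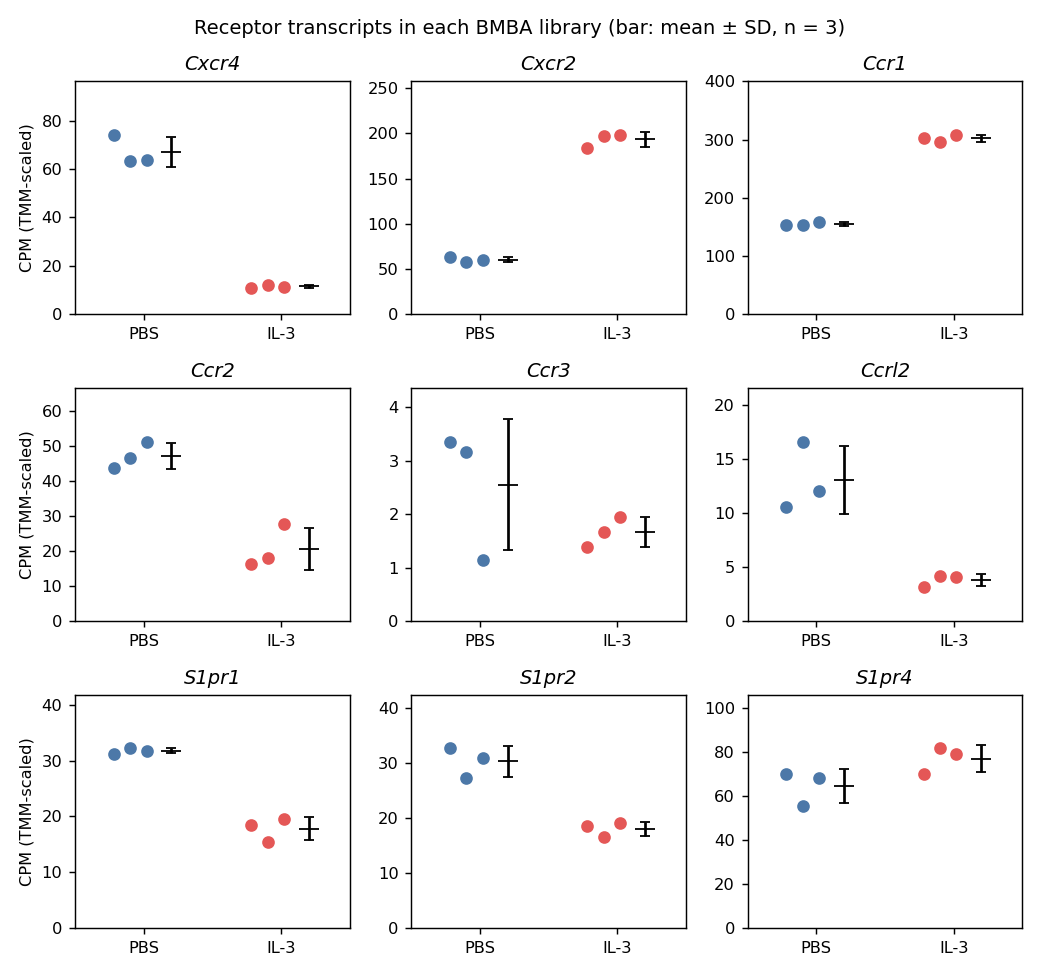
Levels of the 9 receptor genes in each library, in TMM-scaled CPM on a linear axis that starts at 0 and has its own range for each gene, with 1 point per library and a bar with whiskers for mean ± SD (n = 3). Cxcr4 lies between 63.1 and 74.1 CPM in PBS and between 11.1 and 12.2 CPM with IL-3, and only for Ccr3 do the points of the 2 groups overlap.

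Cxcr4, the retention receptor (ENSMUSG00000045382, chromosome 1, 128588199 to 128592293 on the minus strand in GRCm38), measured 74.1, 63.1 and 63.8 CPM in the PBS libraries and 11.1, 12.2 and 11.4 CPM in the IL-3 libraries. Each PBS library was far above each IL-3 library, and the IL-3 libraries lay close together. The mean went from 67.0 ± 6.17 CPM (SD, n = 3) to 11.5 ± 0.563 CPM (SD, n = 3), a 5.80-fold lower level. Its log2 fold change was -2.54 (SE 0.0976, edgeR adjusted p = 7.24e-12). That value ranked 17 from the bottom among all genes tested. In bulk libraries such as these, fewer cells of a type and less RNA per cell cannot be told apart. None of the 50-base stretches of its transcripts occurred in a transcript of another symbol.

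S1pr1, the egress receptor (chromosome 3, 115710433 to 115715072, minus strand), was lower with IL-3 as well. It measured 31.3, 32.2 and 31.8 CPM in PBS and 18.5, 15.5 and 19.5 CPM with IL-3. The PBS libraries were almost level with each other and all lay above the IL-3 libraries. The fall was 1.78-fold, with a log2 fold change of -0.83 (SE 0.105, edgeR adjusted p = 1.10e-05). Within each library the log2 ratio of Cxcr4 to S1pr1, both per kb of transcript, was 2.42, 2.14 and 2.17 in PBS and 0.43, 0.82 and 0.40 in IL-3. The mean log2 ratio fell by 1.69 (2.24 ± 0.150 in PBS, 0.55 ± 0.235 in IL-3, SD, n = 3 each), and this difference does not depend on transcript length. Which of the pair was the higher did depend on it in IL-3. With no correction for length the log2 ratio was 1.07 ± 0.150 in PBS and -0.62 ± 0.235 in IL-3, and with the longest transcripts it was 1.83 ± 0.150 and 0.13 ± 0.235, with IL-3 replicate 3 at -0.017.

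S1pr2 and S1pr4, the other S1P receptors among the 9, went in different directions. S1pr2 (chromosome 9, 20962361 to 20976781, minus strand) measured 32.6, 27.3 and 30.9 CPM in PBS and 18.5, 16.6 and 19.1 CPM with IL-3. Its groups stood apart, with a log2 fold change of -0.75 (SE 0.107, edgeR adjusted p = 4.07e-05), and this call was lost when edgeR tested it against a fold of 1.5 with glmTreat (adjusted p = 0.180). S1pr4 (chromosome 10, 81497747 to 81500132, minus strand) measured 69.8, 55.5 and 67.9 CPM in PBS and 70.1, 81.5 and 79.2 CPM with IL-3. The lowest IL-3 library of S1pr4 was barely above the highest PBS library. The log2 fold change of S1pr4 was 0.26 (SE 0.0866, edgeR adjusted p = 0.0278), a 1.2-fold difference. This call was lost without PBS replicate 2 (log2 fold change 0.16, edgeR adjusted p = 0.147), without IL-3 replicate 2 (0.21, adjusted p = 0.122) and without IL-3 replicate 3 (0.24, adjusted p = 0.0759). With library totals in place of TMM, the log2 fold change of S1pr4 was 0.0945 (adjusted p = 0.428).

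Among the recruitment receptors, Cxcr2 and Ccr1 rose and Ccr2 fell. Cxcr2 (chromosome 1, 74153989 to 74161246, plus strand), the receptor for ELR-type chemokines such as CXCL2, measured 63.2, 58.0 and 60.3 CPM in PBS and 184, 197 and 198 CPM with IL-3. Its libraries were tight within each group, with a 3.20-fold rise (log2 fold change 1.68, SE 0.0617, edgeR adjusted p = 4.37e-12). The mean of Cxcr2 went from 60.5 ± 2.65 to 193 ± 7.95 CPM (SD, n = 3). Ccr1 (chromosome 9, 123962124 to 123968692, minus strand), a receptor for CCL3 and related chemokines, measured 153, 153 and 159 CPM in PBS and 303, 296 and 308 CPM with IL-3. The rise of Ccr1 was 1.95-fold with no overlap (log2 fold change 0.96, SE 0.0518, edgeR adjusted p = 4.63e-10).

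Ccr2 (chromosome 9, 124101950 to 124113557, plus strand), the CCL2 receptor best known from monocytes, measured 43.8, 46.6 and 51.3 CPM in PBS and 16.3, 17.9 and 27.6 CPM with IL-3. IL-3 replicate 3 lay above the other IL-3 libraries and still below every PBS library. The fall was 2.27-fold (log2 fold change -1.18, SE 0.146, edgeR adjusted p = 8.54e-06). Of the 50-base stretches of Ccr2, 1.91% also occurred in transcripts of other symbols.

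Ccr3 (chromosome 9, 124021972 to 124031689, plus strand) was the least abundant of the 9, with 41, 36 and 13 counts in PBS and 14, 20 and 25 counts in IL-3. These correspond to 3.35, 3.16 and 1.15 CPM in PBS and 1.38, 1.67 and 1.94 CPM with IL-3. PBS replicate 3 lay below all IL-3 libraries, whereas the other PBS libraries lay above them. The log2 fold change was -0.61 (SE 0.358, edgeR adjusted p = 0.203). Without PBS replicate 3 it was -0.95 and was called (edgeR adjusted p = 0.0203), so a single library decided whether Ccr3 was called.

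Ccrl2, the atypical chemerin receptor (chromosome 9, 111054486 to 111057519, minus strand), measured 10.6, 16.6 and 11.98 CPM in PBS and 3.16, 4.16 and 4.03 CPM with IL-3. Every PBS library was above every IL-3 library by a wide margin, and the PBS libraries were the more scattered. The fall was 3.41-fold (log2 fold change -1.77, SE 0.198, edgeR adjusted p = 2.96e-06), the next largest among the 9 genes after that of Cxcr4.

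**Figure D2:**
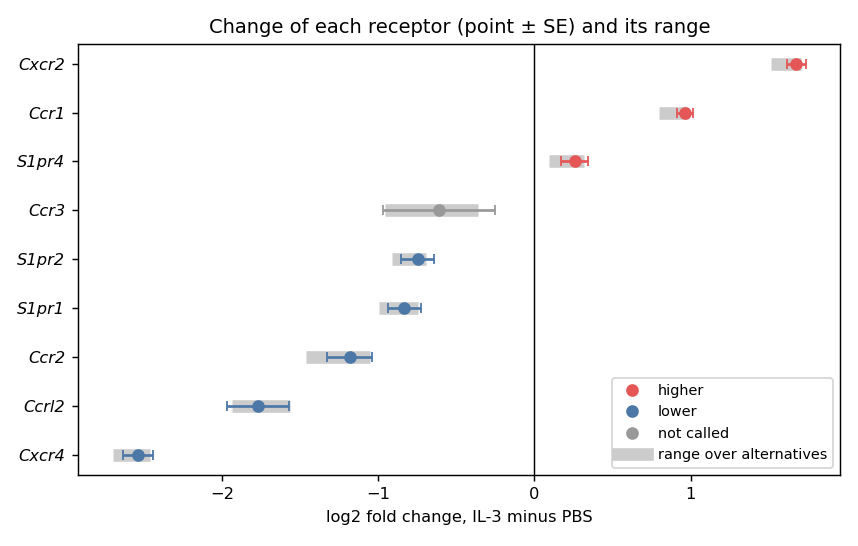
Log2 fold change of each receptor gene, IL-3 minus PBS, with its SE, and the range over 18 alternative analyses. Cxcr4 (-2.54) and Cxcr2 (1.68) lie at the ends, and S1pr4 (0.26) lies nearest to 0.

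To compare levels between genes, CPM was divided by the mean length of the annotated transcripts in kb. In PBS, Ccr1 (54.7 ± 1.23 CPM per kb, SD, n = 3) and Cxcr4 (49.5 ± 4.56 CPM per kb) led the order and their libraries overlapped. S1pr4 (27.0 ± 3.25 CPM per kb) and Cxcr2 (23.0 ± 1.0 CPM per kb) followed, again with overlap, and then S1pr2 (13.8 ± 1.25 CPM per kb) and Ccr2 (13.0 ± 1.05 CPM per kb), which overlapped too. S1pr1 (10.4 ± 0.153 CPM per kb), Ccrl2 (7.99 ± 1.93 CPM per kb) and Ccr3 (0.780 ± 0.374 CPM per kb) came last, each apart from its neighbours at the mean length. In IL-3 the order opened with Ccr1 (107 ± 2.15 CPM per kb), Cxcr2 (73.4 ± 3.02 CPM per kb) and S1pr4 (32.2 ± 2.53 CPM per kb), with no overlap between neighbours. Cxcr4 had dropped to 8.53 ± 0.416 CPM per kb and overlapped with S1pr2 at 8.22 ± 0.595 CPM per kb. The order of Cxcr4 and S1pr2 in IL-3 rested on the length used. With the longest transcripts Cxcr4 held 2.87% ± 0.138 of the summed level and S1pr2 1.26% ± 0.0911, and with no correction for length Cxcr4 held 1.79% ± 0.0956 and S1pr2 2.79% ± 0.192, with no overlap either way. With no correction Cxcr4 in IL-3 also lay below Ccr2 (3.17% ± 0.832) without overlap. In PBS as well, Ccr1 and Cxcr4 stood apart at 32.6% ± 1.24 and 22.1% ± 1.46 with the longest transcripts, and at 32.9% ± 0.991 and 14.2% ± 1.07 with no correction for length. S1pr4 in PBS (16.0% ± 1.43) stood clear of Cxcr2 (11.8% ± 0.144) with the longest transcripts. With no correction for length S1pr4 (13.6% ± 1.25) overlapped with Cxcr4. S1pr2 in PBS lay below both Ccr2 and S1pr1 with the longest transcripts (2.81% ± 0.161, 4.90% ± 0.452 and 6.20% ± 0.304), and with no correction for length it stood at 6.41% ± 0.398, against 10.0% ± 0.837 for Ccr2 and 6.73% ± 0.297 for S1pr1. With the longest transcripts, S1pr1 in PBS thus lay above Ccr2, and Ccrl2 (3.17% ± 0.880) overlapped with S1pr2. Next in the IL-3 order, per kb of mean length, S1pr1 (5.85 ± 0.679 CPM per kb) and Ccr2 (5.68 ± 1.69 CPM per kb) overlapped, followed by Ccrl2 (2.32 ± 0.335 CPM per kb) and Ccr3 (0.508 ± 0.0851 CPM per kb).

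As a share of the summed per-length level of the 9 genes, Cxcr4 held 26.5%, 24.2% and 23.4% in the PBS libraries and 3.46%, 3.69% and 3.35% in the IL-3 libraries. The share of Cxcr2 went from 11.5% ± 0.123 to 30.2% ± 0.603 and that of Ccr1 from 27.4% ± 1.07 to 43.9% ± 1.33 (SD, n = 3). S1pr4 held 13.5% ± 1.21 in PBS and 13.2% ± 0.796 in IL-3, although its CPM was called higher. The summed level itself was 200 ± 6.93 CPM per kb in PBS and 244 ± 7.83 CPM per kb in IL-3. Its rise came from Ccr1, Cxcr2 and, in small part, S1pr4, and the means of all the other receptors were lower. Set against the sum of the recruitment receptors Cxcr2, Ccr1, Ccr2 and Ccr3, the log2 ratio of Cxcr4 was -0.89 ± 0.137 in PBS and -4.45 ± 0.0780 in IL-3. These shares and ratios are descriptions with no test, and they depend on which transcript length is used. With the longest transcript of each gene, the Cxcr4 share fell by 19.2 percentage points, and with no correction for length it fell by 12.4. With the mean length it fell by 21.2 percentage points.

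**Figure D3:**
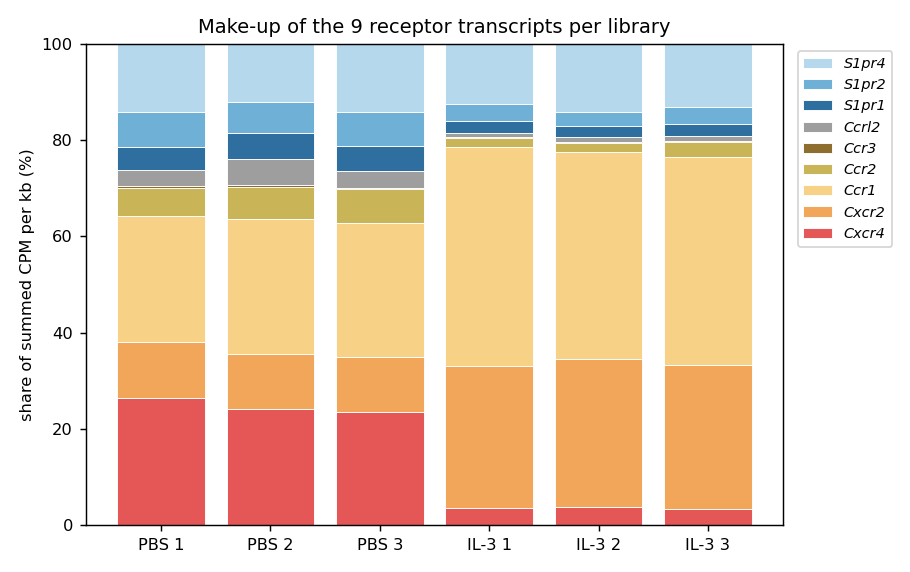
Share of each receptor gene in the summed per-length level (CPM per kb of mean transcript length) of the 9 genes, as a stacked bar from 0 to 100% for each library. The Cxcr4 share falls from 23.4% or more in the PBS libraries to 3.69% or less in the IL-3 libraries, and Ccr1 and Cxcr2 take up most of the IL-3 bars.

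Ccr1, Ccr3 and Ccr2 lie in the chemokine receptor cluster of chromosome 9, and the cluster did not move as a block. Of 20 genes reported here that start within 500 kb of the start of Ccr2, 12 were tested, of which 1 was higher, 2 were lower and 9 were not called. The higher gene was Ccr1, 133 kb before Ccr2. Those called lower were Ccr2 itself and Lztfl1, a cilium gene named here after its values were seen (log2 fold change -0.75, edgeR adjusted p = 4.19e-04). Ccr9 (log2 fold change -0.14, edgeR adjusted p = 0.814) and Xcr1 (0.21, adjusted p = 0.545) were not called. Ccrl2 is 13.0 Mb from Ccr2 and outside this window.

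**Figure D4:**
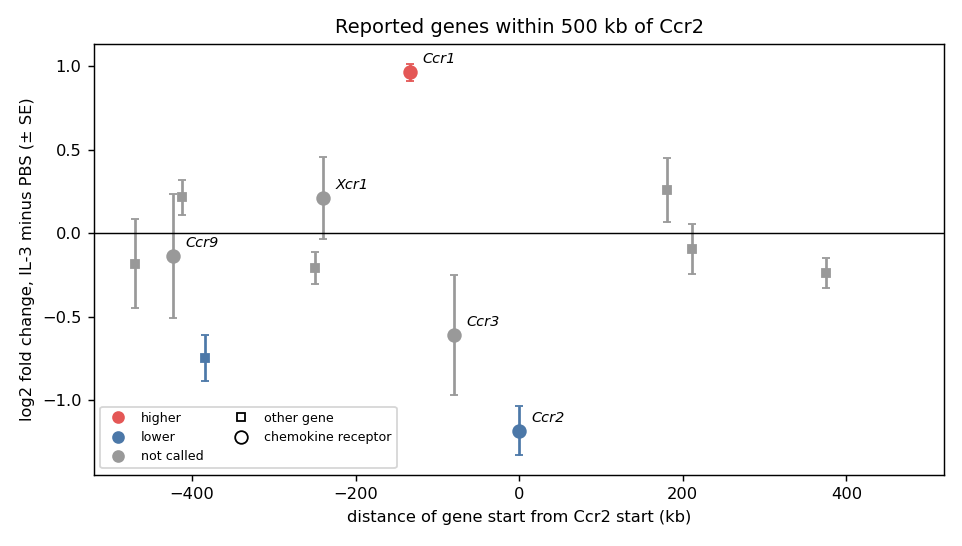
Log2 fold change, IL-3 minus PBS, with SE, of 12 tested genes within 500 kb of the start of Ccr2, by distance in kb. Ccr1 (0.96) and Ccr2 (-1.18) lie 133 kb apart with opposite signs, and 9 of the genes plotted were not called.

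The remaining chemokine receptors were scarce in these cells. Of 17 others reported here, 6 were tested, 1 was higher and 1 was lower, with a median log2 fold change of 0.04. Cxcr1, the close relative of Cxcr2, rose from 0.316 ± 0.270 to 1.51 ± 0.748 CPM (log2 fold change 2.19, edgeR adjusted p = 0.00491) on at most 24 counts per library, and without PBS replicate 2 the log2 fold change was 3.05. Cx3cr1, the fractalkine receptor of monocytes and macrophages, fell from 7.66 to 4.69 CPM (log2 fold change -0.70, edgeR adjusted p = 0.00871). Ccr4 was not called (log2 fold change 0.42, edgeR adjusted p = 0.582, with at most 14 counts per library). Ccr7, a lymph node homing receptor, measured 0.573, 9.12 and 0.529 CPM in PBS and 1.09, 1.42 and 1.94 CPM with IL-3, so PBS replicate 2 alone set its sign. Its log2 fold change was -1.16 (edgeR adjusted p = 0.249), and without that library it was 1.42 (adjusted p = 0.0283). With no filter on low counts Ccr7 was called lower (-1.15, edgeR adjusted p = 0.00100). Of the other S1P receptors, S1pr3 rose from 0.348 ± 0.238 to 1.77 ± 0.434 CPM (log2 fold change 2.33, edgeR adjusted p = 7.35e-04, and 3.0 without PBS replicate 3) and S1pr5 had at most 2 counts in a library.

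Chemokine and chemerin ligands of the 9 receptors numbered 18 in the table, of which 14 were tested, 8 were higher and 2 were lower (median log2 fold change 1.14). Of the ligands of Ccr1, Ccl6, Ccl9 and Ccl3 were abundant and rose, Ccl6 from 2225 ± 80.8 to 17646 ± 1065 CPM, Ccl9 from 998 ± 35.6 to 4199 ± 209 CPM and Ccl3 from 330.2 ± 18.7 to 1154 ± 64.5 CPM. Their log2 fold changes were 2.99, 2.07 and 1.81, with edgeR adjusted p of 3.74e-16, 1.03e-14 and 5.38e-13. The ligands below were named after their values were seen. Ccl5, which also binds CCR1, was scarce and not called (5.47 and 4.15 CPM, log2 fold change -0.40, edgeR adjusted p = 0.365), but without IL-3 replicate 2 it was called lower (-1.01, adjusted p = 0.0107). Ccl2 and Ccl7, ligands of Ccr2, rose by 4.43 and 3.83 on the log2 scale (edgeR adjusted p = 1.78e-08 and 3.28e-07) from means of 0.922 and 1.95 CPM, while Ccr2 itself fell. PBS replicate 1 was the highest PBS library of both, and without it the rises of Ccl2 and Ccl7 were 5.37 and 5.0 on the log2 scale. Ccl8, another ligand of Ccr2, stood at 22.2 ± 11.7 CPM in PBS and 13.6 ± 9.66 CPM with IL-3 and was not called (log2 fold change -0.69, edgeR adjusted p = 0.164). It was called lower without IL-3 replicate 3 (-1.48, edgeR adjusted p = 0.00160) and with no filter on low counts (-0.68, adjusted p = 1.67e-06). Ccl24, a ligand of Ccr3, rose from 0.260 ± 0.157 to 8.50 ± 2.99 CPM (log2 fold change 4.98, edgeR adjusted p = 5.65e-08). Cxcl12, the chemokine ligand of Cxcr4, had at most 4 counts in a library and was not tested. Mif, a cytokine that also binds CXCR4 and CXCR2, stood at 61.3 ± 8.92 CPM in PBS and 60.2 ± 3.68 CPM with IL-3 (log2 fold change -0.025, edgeR adjusted p = 0.866), and 34.1% of its 50-base stretches also occurred in transcripts of other symbols. Ligands of Cxcr2 moved both ways, with log2 fold changes of 1.2 for Cxcl2, 1.09 for Cxcl3, -1.64 for Cxcl5 and -1.37 for Ppbp (edgeR adjusted p = 0.0198, 0.0276, 0.00480 and 0.0212). For Ppbp the groups overlapped, since IL-3 replicate 3 (255 CPM) lay within the PBS range of 236 to 438 CPM, and without it the log2 fold change was -2.59. Without PBS replicate 2 that of Cxcl5 was -0.96, and without PBS replicate 1 that of Cxcl2 was 2.02. Leaving out a single library ended the call of Cxcl2 (without PBS replicate 2 or 3 or IL-3 replicate 2, adjusted p up to 0.160), of Cxcl3 (without PBS replicate 1 or 3 or IL-3 replicate 1 or 2, up to 0.155) and of Ppbp (without PBS replicate 2 or IL-3 replicate 1 or 2, up to 0.107). Under the DESeq2 Wald test Cxcl2, Cxcl3 and Ppbp were not called (adjusted p = 0.177, 0.184 and 0.188), nor was Cxcl3 with library totals (adjusted p = 0.0522) or limma-voom (adjusted p = 0.0714).

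Genes that make, export or degrade S1P numbered 10, all tested, with 5 lower, 1 higher and a median log2 fold change of -0.25. Plpp3, a lipid phosphatase that degrades S1P outside the cell, fell from 80.4 ± 7.42 to 30.8 ± 3.56 CPM (log2 fold change -1.39, edgeR adjusted p = 6.49e-09). The S1P exporters Mfsd2b and Spns2 fell as well, with log2 fold changes of -1.14 and -1.04 (edgeR adjusted p = 3.24e-04 and 0.00348).

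Genes known to act on the transcription or surface level of S1pr1 or Cxcr4, together with Dpp4, which acts on the Cxcr4 ligand, numbered 7, with 4 higher, 2 lower and a median log2 fold change of 0.31. Cd69, whose protein binds S1PR1 and removes it from the cell surface, measured 37.96, 44.5 and 47.1 CPM in PBS and 340, 406 and 368 CPM with IL-3. The log2 fold change of Cd69 was 3.10 (SE 0.0840, edgeR adjusted p = 9.47e-14). Klf2, a transcription factor that induces S1pr1 in lymphocytes, rose from 4.79 ± 1.62 to 11.3 ± 0.514 CPM (log2 fold change 1.23, edgeR adjusted p = 1.28e-04). Hif1a, a hypoxia factor known to induce Cxcr4, rose (log2 fold change 0.80, edgeR adjusted p = 7.04e-08). Dpp4, which encodes a peptidase that inactivates CXCL12, fell (log2 fold change -1.31, edgeR adjusted p = 1.09e-04). Foxo1 (log2 fold change -0.54, edgeR adjusted p = 0.0117) and Itch (0.31, adjusted p = 0.0108) were called, and Hgs (0.15, adjusted p = 0.212) was not. Foxo1 lost its call without PBS replicate 2 or 3 or IL-3 replicate 1 or 3 (adjusted p up to 0.0541), and Itch without PBS replicate 2 or IL-3 replicate 2 (up to 0.0703). With library totals in place of TMM, Itch had a log2 fold change of 0.15 and was not called (edgeR adjusted p = 0.228). The part of these genes in the falls of S1pr1 and Cxcr4 was not tested.

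Downstream of the receptors the changes went both ways. Of 7 receptor kinases and arrestins, which switch off and internalise these receptors, Arrb2 was higher (log2 fold change 0.22, edgeR adjusted p = 0.00637) and Grk3 (-0.65, adjusted p = 0.0143) and Arrb1 (-0.27, adjusted p = 0.0307) were lower. Grk2, Grk4, Grk5 and Grk6 were not called, with log2 fold changes of -0.11, 0.19, 0.07 and -0.24. With library totals in place of TMM, Arrb2 was no longer called (0.057, edgeR adjusted p = 0.513), whereas Grk2 (-0.27, adjusted p = 0.0124) and Grk6 (-0.40, adjusted p = 0.00849) were called lower. Grk6 was also called without PBS replicate 1 (-0.33, edgeR adjusted p = 0.0286). Grk3 lost its call without PBS replicate 1 or IL-3 replicate 2 (edgeR adjusted p up to 0.0625), and Arrb1 without PBS replicate 2 or any single IL-3 library (up to 0.185). Of 11 RGS proteins, which shorten G protein signals, 7 were tested, with 3 higher and 3 lower. Rgs1 and Rgs10 fell (log2 fold changes -0.74 and -0.74, edgeR adjusted p = 6.07e-07 and 1.28e-04) and Rgs19 rose (0.38, adjusted p = 7.14e-05). Of 17 G proteins and effectors of migration, 7 were higher and 6 lower, with a median log2 fold change of 0.07. Pik3r5, a regulatory subunit of the kinase that G protein beta-gamma subunits activate, fell (log2 fold change -1.12, edgeR adjusted p = 1.11e-06), and so did Gng2, one of the gamma subunits (-0.84, adjusted p = 3.87e-08). Rac2, a GTPase of the leukocyte cytoskeleton, rose (log2 fold change 0.41, edgeR adjusted p = 9.40e-06).

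**Figure D5:**
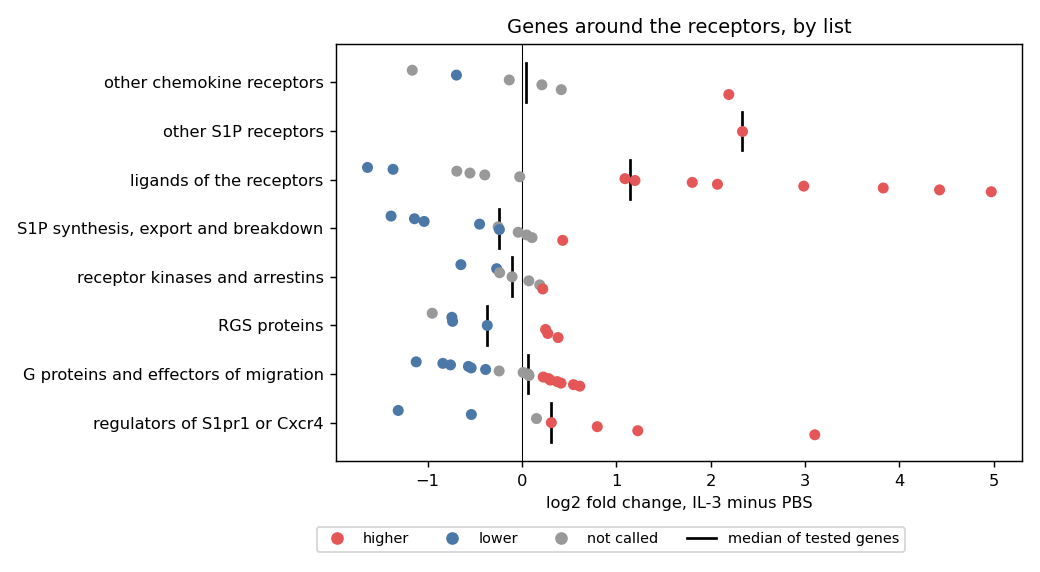
Log2 fold change, IL-3 minus PBS, of the tested genes reported from the 8 lists of related genes, with 1 point per gene and a bar at the median of each list. Ligands reach 4.98 (Ccl24) and have a median of 1.14, and Cd69 (3.10) is the highest of the regulators.

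The 5 genes whose levels over the 6 libraries were most like those of Cxcr4 were Lars2, Rab7b, St6galnac3, Apobec1 and Fbxo32, out of 3782 genes ranked. Likeness was the root mean square difference of log2 CPM after each gene was centred on its mean, and it ranged from 0.112 for Lars2 to 0.242 for Fbxo32. Lars2, the mitochondrial leucyl-tRNA synthetase, went from 719 ± 19.6 to 137 ± 3.95 CPM. For Cxcr2 the 3 closest were Il4ra, the IL-4 receptor alpha chain (0.0411), Csf2rb2, a signalling chain of the mouse IL-3 receptor (0.0449), and Creb3l2, a membrane-bound transcription factor (0.0477). Csf2rb2 went from 940 ± 20.5 to 2979 ± 82.0 CPM, and 18.9% of its 50-base stretches also occurred elsewhere, mainly in Csf2rb.

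Markers of basophils and of other myeloid cells differed between the groups. Of 9 basophil markers, 7 were higher with IL-3 and 1 was lower, and their summed level went from 10760 to 12032 CPM in the PBS libraries to 16110 to 16291 CPM in the IL-3 libraries. Mcpt8, a basophil protease, rose from 3066 to 5895 CPM. Prss34, another basophil protease, was not called, at 5615 ± 323 CPM in PBS and 5661 ± 183 CPM with IL-3 (log2 fold change 0.012, edgeR adjusted p = 0.860), but was called lower with library totals in place of TMM (-0.15, adjusted p = 0.0255). Fcer1a, the alpha chain of the IgE receptor, was the marker called lower, from 289 ± 16.0 to 204 ± 3.32 CPM (log2 fold change -0.50, edgeR adjusted p = 2.38e-06). Of 9 monocyte and macrophage markers, 7 were lower and 2 (Ly6c2 and Adgre1) higher, with sums of 11596 to 12531 CPM in PBS and 6061 to 6672 CPM with IL-3. Lyz2 made up most of that sum, at 10456 CPM in PBS and 5348 CPM with IL-3.

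Set against the monocyte and macrophage markers, the groups overlapped for Ccr2 and not for Cxcr4. Between any PBS and any IL-3 library, Cxcr4 and Ccrl2 fell by more than that marker sum, so their ratios could not overlap. For each 1000 CPM of summed monocyte and macrophage markers, Cxcr4 stood at 5.91, 5.09 and 5.50 CPM in PBS and at 1.66, 2.01 and 1.88 CPM with IL-3. For each 1000 CPM of summed basophil markers, Cxcr4 stood at 6.89, 5.68 and 5.30 CPM in PBS and at 0.679, 0.755 and 0.706 CPM with IL-3. The basophil sum was higher in every IL-3 library, so this ratio could not overlap either. The ratio of Ccr2 to monocyte and macrophage markers was 3.49, 3.76 and 4.42 in PBS and 2.44, 2.95 and 4.55 in IL-3, which overlapped. That of Ccrl2 was 0.842, 1.34 and 1.03 in PBS and 0.473, 0.687 and 0.664 in IL-3, without overlap. The part of these markers in the falls of Ccr2, Ccrl2 and Cxcr4 was not tested.

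Of 9 neutrophil markers, 6 were tested, with 3 higher and 1 lower, and their summed level was 113 to 156 CPM in PBS and 187 to 247 CPM with IL-3. The granulocyte marker Ly6g was at 0, 0.351 and 0.176 CPM in PBS and at 2.27, 2.91 and 1.71 CPM with IL-3, on at most 35 counts per library, and Retnlg at 11.3 and 69.2 CPM. Mpo, the myeloperoxidase of neutrophil granules, was the marker called lower, from 42.9 ± 2.67 to 27.7 ± 1.66 CPM (log2 fold change -0.63, edgeR adjusted p = 2.91e-05). S100a8 (18.1 ± 7.48 and 21.8 ± 9.71 CPM) and S100a9 (13.2 ± 13.0 and 25.4 ± 16.8 CPM) were not called and their groups overlapped, with log2 fold changes of 0.28 and 0.96 (edgeR adjusted p = 0.450 and 0.151). S100a9 was called higher without PBS replicate 2 (2.14, edgeR adjusted p = 0.00219) and with no filter on low counts (0.98, adjusted p = 2.42e-13), and without IL-3 replicate 3 its log2 fold change was 0.25. Elane, a granule protease, was not tested, at 5.07, 0.438 and 2.03 CPM in PBS and 0, 0.833 and 0.543 CPM with IL-3. Cxcr2, a receptor that neutrophils carry, stood at 0.559, 0.372 and 0.496 CPM per CPM of those summed markers in PBS and at 0.984, 1.04 and 0.802 in IL-3. This ratio depends on the markers summed, and Mpo, which fell, had the highest mean of them in PBS. Retnlg (log2 fold change 2.61) and Ly6g (3.66, on few counts) rose more than Cxcr2 (1.68), and the other tested markers rose less or fell. The part of neutrophil markers in the rise of Cxcr2 was not tested. Mast cell markers summed to 330 to 370 CPM in PBS and 668 to 759 CPM with IL-3 (5 of 6 tested, 3 higher, Mrgprb2 at most 1 count). Eosinophil markers summed to 156 to 172 and 97.4 to 137 CPM (5 of 7 tested, 1 higher and 3 lower, Epx at most 8 counts). The higher one was Prg2, the granule major basic protein, at 4.27 ± 1.56 CPM in PBS and 49.8 ± 11.97 CPM with IL-3 (log2 fold change 3.54, edgeR adjusted p = 1.69e-09). Lymphocyte markers summed to 6.63 to 8.59 and 5.91 to 7.21 CPM (3 of 10 tested, none called, Gzma at 0). The part of these cell types in the receptor values was not tested.

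Tested against a fold of 1.5 with edgeR glmTreat, 18 of the 49 called genes named besides the 9 receptors lost their call. They were Rgs1 (adjusted p = 0.0633), Spns2 (0.110), Ppbp (0.150), Cxcl2 (0.176), Rgs10 (0.240), Cxcl3 (0.247), Lztfl1 (0.296), Cx3cr1 (0.627), Mpo (0.667) and Grk3 (0.815), and, with adjusted p at 1.0, Arrb1, Arrb2, Rgs19, Rac2, Foxo1, Itch, Adgre1 and Fcer1a.

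A RefSeq window of 250 bases before and 50 after the transcript start was found for 8 of the 9 genes, all but S1pr1. On both strands, the STAT motif TTCNNNGAA and the forkhead motif GTAAACA were in none of these windows, against 8.3% and 3.65% of 32851 windows. The hypoxia factor core ACGTG was in the overlapping windows of Ccrl2 alone, against 19.6% of all windows.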

How the data were processed

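Poly(A) RNA of 6 libraries was sequenced after whole-transcriptome cDNA amplification. The authors trimmed reads with cutadapt 3.4, mapped them with Bowtie2 to reference RNA and deposited raw read counts summed by gene symbol. The methods of the study name build GRCm38 and the submitters' processing notes name GRCm39. The labels name a column kit for the RNA and the methods name direct lysis. No molecular identifiers are described. Library totals were 10537540 to 13999287 counts, so 3 counts, the limit that a count of 0 allows, equal 0.233 to 0.296 CPM, which covers counting error only. Ribosomal RNA genes held 15.2% to 17.4% of the counts.

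Counts were tested with edgeR 4.0.16 in R 4.3.3 (filterByExpr, TMM, quasi-likelihood F test, two-sided, group as the only term), and p-values were adjusted by Benjamini-Hochberg over all 16675 genes tested. Values are mean ± SD of TMM-scaled CPM. SEs were computed from log2 fold changes and their F values. Coordinates and transcript lengths came from GENCODE M21 (GRCm38), which held 96.22% of the symbols. The receptors and lists were chosen with earlier results of these data known. Named genes were the 9 receptors, the tested other chemokine and S1P receptors, all tested genes of lists of 7 or fewer, the 3 called genes with the smallest adjusted p of longer lists, and the genes most like Cxcr4 and Cxcr2 among called genes with at least 20 CPM in the higher group. The CG count, the marker ratios and the marker genes named were chosen after the data were seen. A gene of the lists is not reported here. Likeness used log2 CPM with a prior count of 2.

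In simulated counts of 16454 genes for IL-3 against PBS, 87.5% of 200 genes changed 2-fold were called and 0.0800% of unchanged genes. The changed genes were drawn from the better-counted ones, with as many raised as lowered. In the data 38.2% of genes were called, so these rates do not carry over to scarce genes or to so many changes. Alternatives were other size factors (DESeq2 1.42.0), library totals, iterated TMM, leaving out ribosomal RNA genes, other filters, the DESeq2 Wald test, limma-voom (limma 3.58.1), the edgeR exact test, glmTreat against a fold of 1.5, thinning, a replicate block and leaving out each library. For named genes outside the 9 receptors they were added after the data were seen.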

Additional observations from a re-analysis of the deposited data

How the results depend on the processing

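Over 18 alternatives for each of the 9 receptors, 155 of 162 values kept their direction and their side of the threshold. Cxcr4 did so in all 18, with log2 fold changes of -2.70 to -2.46, as did Cxcr2 (1.51 to 1.71), Ccr1 (0.80 to 0.98), Ccr2 (-1.46 to -1.05), Ccrl2 (-1.93 to -1.56) and S1pr1 (-0.997 to -0.74). S1pr2 lost its call under glmTreat (adjusted p = 0.180), S1pr4 in 5 alternatives, and Ccr3 gained one without PBS replicate 3. The replicate numbers did not pair the libraries (correlations of deviations -0.0087, -0.016 and -0.022), and with a replicate block Cxcr4 changed by -2.53 and 3 receptors were higher and 5 lower. With library totals 1698 genes were called higher, against 3003 with TMM, and 25.2% of calls were higher instead of 47.1%, with a shift of -0.16 in the median log2 fold change. With glmTreat 709 genes were higher and 883 lower, against 3372 lower without it. The difference in the Cxcr4 share, -21.2 percentage points, was -19.2 with the longest transcripts and -12.4 without length.

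Of 64 other named genes, 33 kept direction and call in every alternative that tested them, a share that was not counted over all genes. Signs turned when single libraries were left out for Ccr4 (-0.00072 to 1.1), Ccr7 (-1.68 to 1.42), Ccr9 (-0.47 to 0.097), Mif (-0.14 to 0.056), S100a8 (-0.16 to 0.67) and Prss34 (-0.027 to 0.056), and for Ccr7 with limma-voom (0.055), and with library totals for Grk5 (-0.092), Hgs (-0.0096) and Prss34 (-0.15, and -0.012 with iterated TMM). The cause was not tested. Ccr3, Cxcr1 and S1pr3 were scarce, with at most 41, 24 and 27 counts in a library.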
